A study of Homo sapiens with 6 samples.

Results

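The EGFR family and its ligands were followed here as 10 genes: the receptors EGFR, ERBB2 and ERBB3 and the ligands AREG, EREG, TGFA, HBEGF, BTC, EPGN and NRG1. They were taken by gene symbol from a matrix of 58884 genes, and each symbol stood on a single row. Of the 10 members, 9 had a mean of at least 10 normalized counts over all libraries and were tested among the 16701 genes that passed this filter, while EPGN did not pass.

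The study asked what NRF2 activation does in esophageal squamous cell carcinoma (ESCC), and RNA sequencing (RNA-seq) compared an isogenic pair of human cell lines. KYSE450 is an established ESCC line with wild-type NRF2, and KEAP1null-KYSE450 was derived from it by CRISPR-Cas9 editing of KEAP1 and grown from a single cell. KEAP1 is the adaptor that marks NRF2 for degradation. Both lines were untreated and grown in RPMI1640 medium with fetal bovine serum, and each gave 3 libraries. The edited line is 1 clone, so a difference that belongs to the loss of KEAP1 cannot be told apart from one that belongs to the clone. Nothing in the labels says that the libraries came from separate cultures, so the p-values measure the spread between these libraries, which may be technical.

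EGFR, ERBB2 and ERBB3 are receptor tyrosine kinases that pair with each other once a ligand is bound and then recruit adaptors that turn on the RAS-ERK and PI3K-AKT pathways. ERBB2 has no known ligand of its own and ERBB3 has little kinase activity, so both work mainly in pairs. The ligands are made as membrane proteins and are cut loose by ADAM proteases. AREG, TGFA and EPGN bind EGFR, EREG, HBEGF and BTC bind EGFR and ERBB4, and NRG1 binds ERBB3 and ERBB4. In squamous epithelium this family is known for its part in keratinocyte growth and migration.

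The values are normalized counts, that is read counts divided by 1 size factor per library. They summed to between 54829313 and 57380170 per library, and 3 reads were worth between 2.77 and 3.21 normalized counts, a floor that covers counting error only. Over the tested genes, Pearson's r of the log2 values was 0.984 to 0.989 within a line and 0.924 to 0.936 between the lines. KEAP1 had a mean of 5377 ± 334 (SD, n = 3) in KYSE450 and 5320 ± 415 (SD, n = 3) in KEAP1null-KYSE450. A short edit in a coding exon need not lower the transcript count, so this level does not check the labels. GCLC, a well-known NRF2 target named here after its values were seen, lay between 4836 and 5937 in KYSE450 and between 79454 and 91736 in KEAP1null-KYSE450, the direction that the labels give. NFE2L2, which encodes NRF2, had a log2 fold change of -0.47 (limma, adjusted p = 6.34e-04), short of the fold threshold used below. All 7 squamous epithelial markers looked up (KRT5, TP63, DSG3, PKP1, CDH1, SFN and KRT6A) were detected in every library, with a summed level of 295351 to 409323 in KYSE450 and 560105 to 700833 in KEAP1null-KYSE450. The higher sum came from KRT5, whereas 5 of the 7 markers (TP63, PKP1, CDH1, SFN and KRT6A) were lower in every KEAP1null-KYSE450 library than in any KYSE450 library. KRT6A ranged from 64933 to 81897 in KYSE450 and from 2540 to 3028 in KEAP1null-KYSE450, and the part of these differences in the results was not tested. The 4 immune markers summed to at most 9.1 in any library and the 3 endothelial markers to at most 73.8, with PECAM1 at 0 throughout. The 6 mesenchymal markers summed to 623 to 845 in KYSE450 and 351 to 432 in KEAP1null-KYSE450, almost all of it COL1A1, and their part in the results was not tested. Mitochondrial genes took 2.04% to 2.83% of the counts in KYSE450 and 3.92% to 4.65% in KEAP1null-KYSE450, and the part of this difference in the results was not tested.

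None of the receptors passed both thresholds given below, while most of the ligand members that bind EGFR fell. ERBB3 was lower by adjusted p alone (limma, adjusted p = 0.00655). Of the 9 members tested, 4 fell in KEAP1null-KYSE450 (AREG, EREG, TGFA and HBEGF), 1 rose (BTC) and 4 did not pass both thresholds, which were an adjusted p under 0.05 by limma with Benjamini-Hochberg adjustment and a log2 fold change of 1 or more in either direction. Over all genes tested 5.98% fell and 12.2% rose by the same rule, 18.2% in all. The 3 libraries of 1 line all lay above those of the other for 6 of the 9 members, close to the 57.8% found over all tested genes. The median log2 fold change was -0.69 over the 9 members and 0.0041 over all tested genes. These counts and medians describe a list that was chosen with earlier results known and carry no test of the list.

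**Figure D1:**
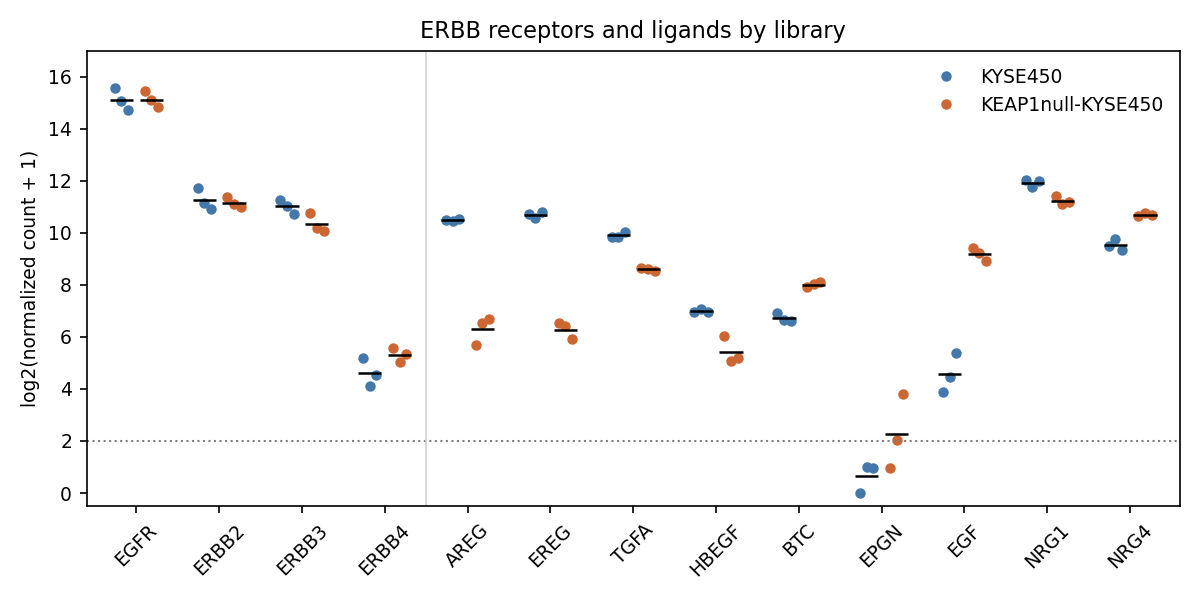
Level of each ERBB receptor (left of the grey line) and ligand (right) on the log2(normalized count + 1) axis; each point is 1 library, each short bar the mean of 3, and the dotted line stands at 3 normalized counts. The EGFR points of the lines interleave between 27296 and 48306 normalized counts, whereas all KEAP1null-KYSE450 points of AREG and EREG lie at or below 102.

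EGFR, the receptor that binds most ligands of the family, was by far the most abundant member. KYSE450 libraries 1 to 3 held 48306, 34232 and 27296 normalized counts of EGFR, and KEAP1null-KYSE450 libraries 1 to 3 held 44396, 35242 and 29129. The ranges of the lines overlapped almost completely, and each line had its highest value in library 1 and its lowest in library 3. The log2 fold change of KEAP1null-KYSE450 against KYSE450 was 0.0047 with a standard error (SE) of 0.19 and a 95% interval of -0.41 to 0.42 (limma, adjusted p = 0.986). The interval leaves room for a change of up to 1.34-fold upward or 1.33-fold downward. The level of EGFR, averaged over the libraries, exceeded that of 98.9% of the tested genes before any division by length. EGFR lies at chr7:55019017-55211628 (hg38, plus strand).

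ERBB2, the partner without a known ligand, had 3358, 2283 and 1951 normalized counts in KYSE450 and 2642, 2184 and 2052 in KEAP1null-KYSE450. The libraries of the lines overlapped and again ran from highest in library 1 to lowest in library 3. The log2 fold change was -0.11 with SE 0.17 and a 95% interval of -0.48 to 0.26 (limma, adjusted p = 0.606). On the opposite strand MIEN1 and PGAP3 cover 5.53% and 1.40% of the ERBB2 exon length, and no source used here says whether reads were counted by strand.

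ERBB3, the partner with little kinase activity and a receptor for NRG1, had 2479, 2111 and 1711 normalized counts in KYSE450 and 1738, 1164 and 1084 in KEAP1null-KYSE450. The highest KEAP1null-KYSE450 library lay just above the lowest KYSE450 library. The log2 fold change was -0.68 with SE 0.18 and a 95% interval of -1.06 to -0.30 (limma, adjusted p = 0.00655), short of the fold threshold. The adjusted p was between 0.058 and 0.0986 with eBayes without trend and in the 3 tests on 4 libraries (limma, edgeR and DESeq2). The position of the receptors within each line moved with that of long genes. The 3080 genes with the longest exons, among those with a mean of at least 100, had a median deviation from the mean of their line of 0.11 and 0.077 log2 units in the first libraries and of -0.060 and -0.061 in the third. The part of gene length in the receptor values was not tested.

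A ratio taken inside a library removes what its receptors share. The log2 ratio of ERBB3 to EGFR was -4.28, -4.02 and -3.995 in KYSE450 and -4.67, -4.92 and -4.75 in KEAP1null-KYSE450, without overlap. The mean difference was -0.68 log2 units (exact permutation test, two-sided p = 0.1, the smallest that 3 against 3 libraries can give). The log2 ratio of ERBB2 to EGFR was -3.85, -3.91 and -3.81 in KYSE450 and -4.07, -4.01 and -3.83 in KEAP1null-KYSE450, which overlapped (exact permutation test, p = 0.3). Per kilobase of exon, EGFR made up 84.3% ± 0.66 (SD, n = 3) of the 3 receptors in KYSE450 and 87.1% ± 0.74 (SD, n = 3) in KEAP1null-KYSE450. The ERBB3 share was 6.71% ± 0.68 and 4.32% ± 0.36 (SD, n = 3 each). On this per-length scale the receptors summed to 2721 ± 774 in KYSE450 and 2610 ± 541 in KEAP1null-KYSE450 (SD, n = 3 each), and the libraries overlapped.

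**Figure D2:**
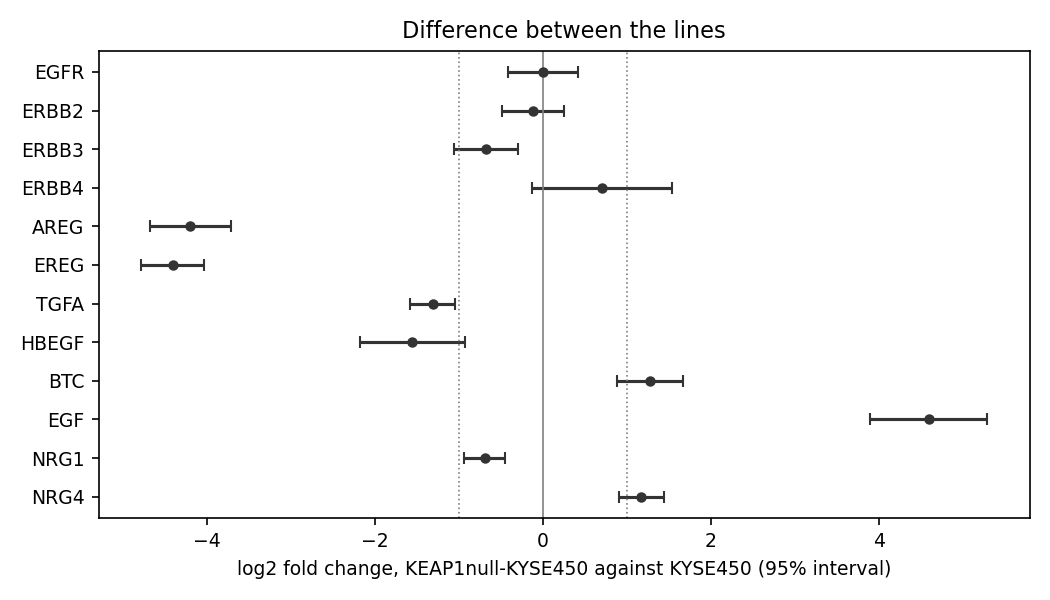
Log2 fold change of KEAP1null-KYSE450 against KYSE450 (points) with its 95% interval from limma (bars) for the receptors and ligands that were tested, with dotted lines at -1 and 1. AREG at -4.20, EREG at -4.41 and EGF at 4.60 stand far outside the dotted lines, and the interval of EGFR, -0.41 to 0.42, spans 0.

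AREG (amphiregulin) binds EGFR and is a growth factor that keratinocytes make for themselves. It had 1446, 1396 and 1485 normalized counts in KYSE450 and 50.8, 90.7 and 102 in KEAP1null-KYSE450. The KYSE450 libraries were tightly grouped, every KEAP1null-KYSE450 library lay far below them, and KEAP1null-KYSE450 library 1 was the lowest. AREG fell by 4.20 on the log2 scale with SE 0.22, which is 18.3-fold lower with a 95% interval of 13.2-fold to 25.5-fold (limma, adjusted p = 1.39e-08). It was the 95th gene from the lowest log2 fold change among the 16701 tested. In bulk RNA, fewer cells with the transcript and less of it per cell cannot be told apart.

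EREG (epiregulin), which binds EGFR and ERBB4, had 1687, 1509 and 1764 normalized counts in KYSE450 and 91.4, 83.6 and 59.5 in KEAP1null-KYSE450. As for AREG, the lines were far apart, but here KEAP1null-KYSE450 library 1 was the highest of its line. EREG fell by 4.41 on the log2 scale with SE 0.17, which is 21.2-fold lower with an interval of 16.3-fold to 27.5-fold (limma, adjusted p = 9.84e-10). Its rank was 86 from the lowest. A log2 fold change of -4 or lower was found for 0.647% of all tested genes. Inside a library, the log2 ratio of AREG to EREG was -0.22, -0.11 and -0.25 in KYSE450 and -0.84, 0.12 and 0.77 in KEAP1null-KYSE450. The 2 transcripts thus kept a near-constant proportion in KYSE450, and the ratio was more variable in KEAP1null-KYSE450 (exact permutation test of the mean, p = 0.7). Both counts were low in KEAP1null-KYSE450, and the part of this in the spread of the ratio was not tested.

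TGFA (transforming growth factor alpha), an EGFR ligand, had 917, 921 and 1039 normalized counts in KYSE450 and 403, 387 and 365 in KEAP1null-KYSE450. The lines did not overlap and the replicates were close in both. TGFA fell by 1.31 on the log2 scale with SE 0.12, or 2.48-fold (95% interval 2.07 to 2.98; limma, adjusted p = 3.05e-06).

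HBEGF (heparin-binding EGF-like growth factor) binds EGFR and ERBB4. It had 122, 132 and 122 normalized counts in KYSE450 and 64.6, 32.6 and 35.3 in KEAP1null-KYSE450. No KEAP1null-KYSE450 library reached the KYSE450 range, and library 1 stood above the other KEAP1null-KYSE450 libraries. HBEGF fell by 1.55 on the log2 scale with SE 0.29, or 2.93-fold (95% interval 1.90 to 4.53; limma, adjusted p = 7.64e-04). Its SE was the largest among the 9 members tested.

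BTC (betacellulin), which also binds EGFR and ERBB4, went the other way. It had 121, 100 and 97.9 normalized counts in KYSE450 and 239, 258 and 276 in KEAP1null-KYSE450. All KEAP1null-KYSE450 libraries lay above all KYSE450 libraries. BTC rose by 1.27 on the log2 scale with SE 0.18, or 2.42-fold (95% interval 1.84 to 3.18; limma, adjusted p = 1.08e-04). When limma tested against a fold change of 2 instead of using it as a cutoff, AREG and EREG passed, and TGFA, HBEGF and BTC did not (adjusted p = 0.155, 0.398 and 0.674).

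NRG1 (neuregulin 1), the ligand of ERBB3 and ERBB4 encoded on chromosome 8, was the ligand with the most counts before division by length. It had 4243, 3460 and 4036 normalized counts in KYSE450 and 2728, 2211 and 2340 in KEAP1null-KYSE450, without overlap. Its log2 fold change of -0.69 with SE 0.11 and a 95% interval of -0.93 to -0.45 did not reach the fold threshold (limma, adjusted p = 2.88e-04). By adjusted p alone 6 members were lower, ERBB3 and NRG1 among them, and 1 was higher, where 25.5% and 24.3% of all tested genes were lower and higher, 49.8% in all. EPGN (epigen), another EGFR ligand, was at 0, 1.01 and 0.93 normalized counts in KYSE450 and 0.92, 3.06 and 13.1 in KEAP1null-KYSE450. Only KEAP1null-KYSE450 library 3 stood clearly above the floor of 3 reads, and no fold is given.

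Since the ligands differ in length, their levels were set beside each other per kilobase of exon. In KYSE450, AREG made up 54.0% ± 0.88 of the 7 ligand members, EREG 17.8% ± 0.60, TGFA 12.0% ± 0.60, NRG1 11.2% ± 0.79, HBEGF 2.59% ± 0.24 and BTC 2.46% ± 0.29 (SD, n = 3). In KEAP1null-KYSE450, NRG1 made up 30.8% ± 3.3, BTC 26.4% ± 1.7, TGFA 21.3% ± 1.3, AREG 13.4% ± 4.4, HBEGF 4.01% ± 1.6 and EREG 3.72% ± 0.84 (SD, n = 3). On this length BTC had the smallest mean share apart from EPGN in KYSE450 and was exceeded by NRG1 alone in KEAP1null-KYSE450. The NRG1 and BTC shares of the KEAP1null-KYSE450 libraries, 28.6% to 34.6% and 24.4% to 27.7%, did not overlap, while HBEGF and BTC in KYSE450 did. The summed level per kilobase of the 7 ligands was 1628 ± 74.7 in KYSE450 and 369 ± 7.5 in KEAP1null-KYSE450 (SD, n = 3), without overlap. Without division by length the 7 ligands summed to 8200 ± 589 and 3278 ± 266 (SD, n = 3 each), also without overlap. The size of this drop thus depends on the scale. The shares depend on the length used: without division by length, AREG took 17.6% and 2.52% and NRG1 47.7% and 73.9% in KYSE450 and KEAP1null-KYSE450. The rank of BTC depends on it too, since in KEAP1null-KYSE450 TGFA took 11.8% and BTC 7.92% without that division. With the canonical transcript length, TGFA took 19.4% and BTC 17.9% in KEAP1null-KYSE450 library 1. In KEAP1null-KYSE450 libraries 2 and 3 BTC was above TGFA, at 20.2% and 20.7% against 19.5% and 17.6%.

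**Figure D3:**
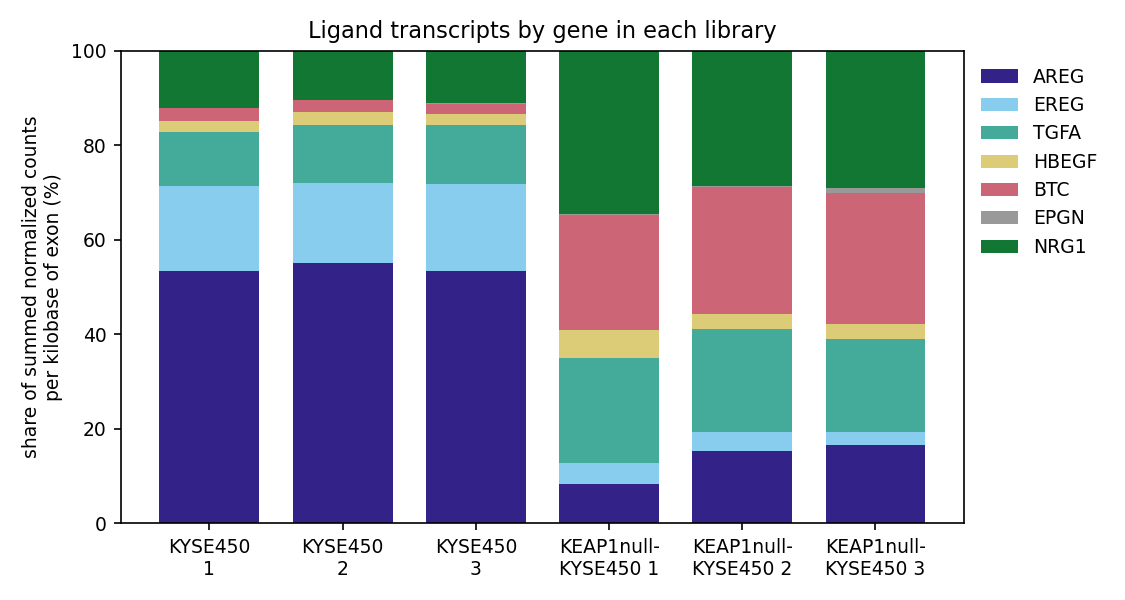
Share of each of the 7 ligand members in their summed normalized counts per kilobase of exon, in percent, with 1 stacked bar per library. AREG and EREG together fill most of each KYSE450 bar, while NRG1, BTC and TGFA fill most of each KEAP1null-KYSE450 bar.

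Of the 5 receptor and ligand genes of the family outside the members, 3 were tested, 2 rose and none fell. Among all tested genes 12.2% rose and 5.98% fell. EGF, the founding ligand of EGFR, had 13.9, 21.2 and 41.0 normalized counts in KYSE450 and 680, 596 and 482 in KEAP1null-KYSE450. Every KEAP1null-KYSE450 library was more than 10 times any KYSE450 library. EGF rose by 4.60 on the log2 scale with SE 0.32, or 24.2-fold (limma, adjusted p = 2.24e-07), and ranked 115 from the highest of the 16701 genes. A log2 fold change of 4 or more was found for 1% of tested genes. With EGF counted among the ligands that bind EGFR, it made up 0.23% ± 0.12 of their level per kilobase in KYSE450 and 23.2% ± 3.9 in KEAP1null-KYSE450. That level summed to 1448 ± 60.7 and 332 ± 3.4 (SD, n = 3 each), so the sum was lower in KEAP1null-KYSE450 with EGF included as well.

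NRG4 (neuregulin 4), a ligand of ERBB4, had 716, 869 and 644 normalized counts in KYSE450 and 1614, 1748 and 1630 in KEAP1null-KYSE450. The lines did not overlap, and the log2 fold change was 1.17 with SE 0.12 (limma, adjusted p = 9.79e-06). Of the NRG4 exon length, 38.2% overlaps FBXO22 on the opposite strand, so reads of these genes cannot be told apart in this part if strand was not used. FBXO22 itself had a log2 fold change of -0.34. ERBB4, the receptor for the neuregulins, EREG, HBEGF and BTC, was low at 35.3, 16.2 and 22.4 normalized counts in KYSE450 and 47.1, 31.6 and 39.3 in KEAP1null-KYSE450. Its lines overlapped, and the log2 fold change was 0.71 with a 95% interval of -0.13 to 1.54 (limma, adjusted p = 0.146). NRG2 and NRG3 were at 0 in every library, under the floor of 3 reads.

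AREG, EREG, EPGN and BTC are neighbours on chromosome 4. On hg38 EPGN lies at chr4:74308470-74316789, EREG at chr4:74365145-74388749 and AREG at chr4:74445136-74455005, all on the plus strand, and BTC at chr4:74744759-74794523 on the minus strand. The gaps are 48.4 kb from EPGN to EREG, 56.4 kb from EREG to AREG and 290 kb from AREG to BTC. EGF lies far away on the same chromosome, at chr4:109912883-110013766. The 250 bases upstream of the RefSeq start of these genes (GRCh38.p14) are shown for the pair that fell together, for their neighbour that rose and for EGF, 5′ to 3′ on the strand of the gene. Capitals mark matches to 3 motifs searched on both strands: the cyclic AMP response element TGACGTCA, the AP-1 site TGACTCA, and the core TGACNNNGC of the antioxidant response element, to which NRF2 binds.
AREG (chr4:74444886-74445135, plus strand): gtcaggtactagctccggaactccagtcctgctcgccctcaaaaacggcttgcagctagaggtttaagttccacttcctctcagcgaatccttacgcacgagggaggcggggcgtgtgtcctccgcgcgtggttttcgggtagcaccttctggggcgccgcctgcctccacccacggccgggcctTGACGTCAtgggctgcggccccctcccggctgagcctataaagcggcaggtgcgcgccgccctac
EREG (chr4:74364895-74365144, plus strand): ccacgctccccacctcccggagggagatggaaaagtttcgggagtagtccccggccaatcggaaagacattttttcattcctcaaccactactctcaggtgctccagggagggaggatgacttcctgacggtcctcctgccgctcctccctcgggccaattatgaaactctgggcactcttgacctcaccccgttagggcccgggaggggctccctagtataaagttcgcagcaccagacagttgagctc
BTC (chr4:74794524-74794773, minus strand): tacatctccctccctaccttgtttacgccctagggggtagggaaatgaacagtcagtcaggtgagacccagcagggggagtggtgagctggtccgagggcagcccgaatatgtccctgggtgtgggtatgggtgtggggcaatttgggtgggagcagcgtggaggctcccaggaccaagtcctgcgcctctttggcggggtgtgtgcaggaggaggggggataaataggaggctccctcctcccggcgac
EGF (chr4:109912633-109912882, plus strand): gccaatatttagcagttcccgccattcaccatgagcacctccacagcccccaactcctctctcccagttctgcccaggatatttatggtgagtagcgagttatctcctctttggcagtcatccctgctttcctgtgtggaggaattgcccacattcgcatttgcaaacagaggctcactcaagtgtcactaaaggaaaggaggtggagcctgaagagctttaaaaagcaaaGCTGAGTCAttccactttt

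The AREG window holds a full cyclic AMP response element 65 to 58 bases before the start, a motif found in 1.65% of the 35116 promoter windows. The EREG and BTC windows hold none of the 3 motifs. The EGF window holds the antioxidant response element core 19 to 11 bases before the start, and the AP-1 site read on the other strand lies inside that match at 17 to 11 bases. Of all windows, 10.9% hold the core and 4.20% the AP-1 site. An EGFR window that lies inside the gene (chr7:55109589-55109838) also holds the AP-1 site, at 232 to 226 and at 136 to 130 bases before its start. Of the 10 members, 8 had a window in the table, and none of these 8 held the core. The NRG4 window held it 38 to 30 bases before the RefSeq start. That window (chr15:76012425-76012674) lies inside the annotated NRG4 gene (chr15:75935969-76059795, minus strand). A match describes letters and does not show that a factor binds there, and a window without one says only that the letters are missing from it.

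The genes within 500 kb of the 4 neighbouring ligands went different ways. Of 30 genes there, the 4 ligands included, 10 were tested, of which 5 fell, 2 rose and 3 did neither. By the same rule 5.98% of all tested genes fell and 12.2% rose. EREG and AREG are among the 5 and BTC among the 2. These ligands set the window and were chosen with earlier results known, so the counts carry no test. Beside EREG and AREG, the 3 genes that fell were chemokines that attract neutrophils. CXCL1 had 3427, 3773 and 3800 normalized counts in KYSE450 and 285, 231 and 255 in KEAP1null-KYSE450, far apart, with a log2 fold change of -3.83 and SE 0.12 (limma, adjusted p = 7.87e-11). CXCL3 and CXCL2 had log2 fold changes of -2.45 and -2.03 (adjusted p = 1.65e-06 and 1.98e-04). Between the chemokines and EPGN lies MTHFD2L, a mitochondrial folate enzyme, whose log2 fold change was 0.57 (adjusted p = 0.0185), and AC093677.2, a long non-coding RNA, was at 1.13 (adjusted p = 0.0777). On the BTC side, PARM1 rose by 1.25 on the log2 scale (adjusted p = 6.89e-05) and LINC02562 was at 0.76 (adjusted p = 0.00576). The genes that fell were therefore not a single unbroken stretch.

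**Figure D4:**
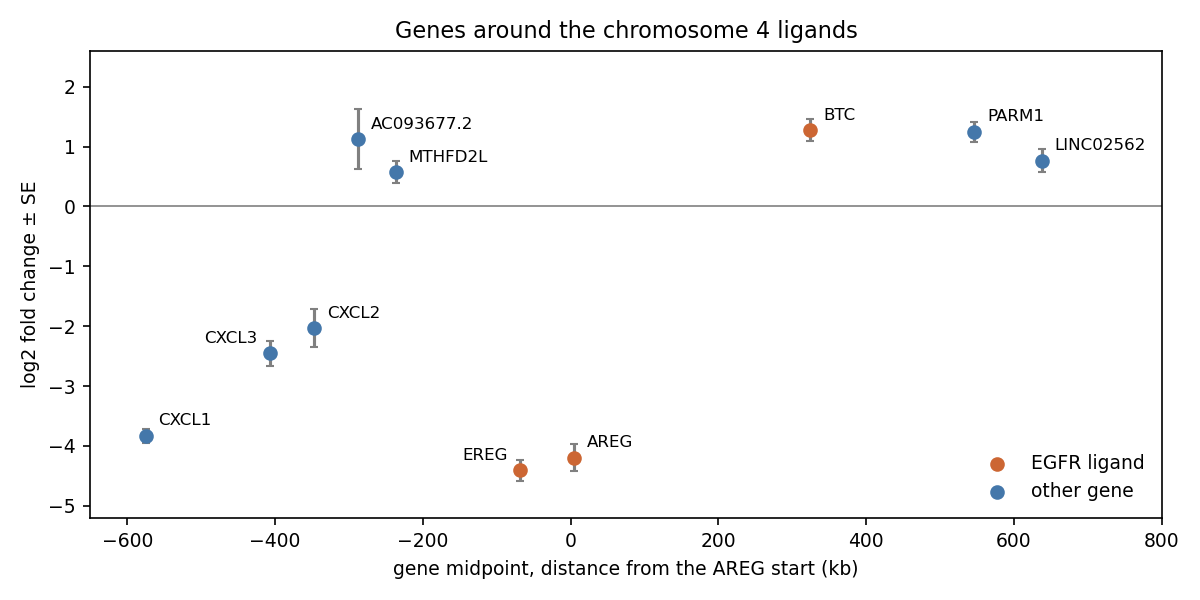
Log2 fold change of KEAP1null-KYSE450 against KYSE450 with its SE (vertical axis) of the 10 tested genes around the chromosome 4 ligands, placed by the distance of the gene midpoint from the AREG start in kilobases. CXCL1, CXCL3, CXCL2, EREG and AREG lie at -2.03 or lower, and BTC, PARM1 and AC093677.2 lie above 1.

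Of 8 genes for ligand shedding, 1 rose and none fell, where 12.2% of all tested genes rose and 5.98% fell. The median log2 fold change was -0.15, against 0.0041 over all tested genes. ADAM17, the main protease that releases AREG, EREG, TGFA and HBEGF, had 5018, 5030 and 4508 normalized counts in KYSE450 and 8995, 7275 and 6713 in KEAP1null-KYSE450. These did not overlap, but the log2 fold change of 0.65 with SE 0.11 was short of the fold threshold (limma, adjusted p = 4.88e-04). ADAM12, a protease able to shed HBEGF, was at 1.07, 0 and 0 in KYSE450, at or below the floor, and at 129, 82.6 and 74.7 in KEAP1null-KYSE450. It passed the test (adjusted p = 2.99e-06), and no fold is given because KYSE450 had 1 read at most in a library.

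Of 26 adaptors and transducers tested, 1 rose and 3 fell, where 12.2% of all tested genes rose and 5.98% fell. Their median log2 fold change was -0.15. GAB1, the docking protein that links EGFR to PI3K and SHP2, rose from 181 ± 27.7 to 821 ± 40.5 normalized counts (SD, n = 3 each; log2 fold change 2.18, limma adjusted p = 1.96e-07). STAT3, a transcription factor downstream of EGFR and of cytokine receptors, fell from 16802 ± 2193 to 4700 ± 394 (log2 fold change -1.83, adjusted p = 4.83e-08). HRAS fell by 1.17 on the log2 scale, and the log2 fold change of GRB7, an adaptor that binds ERBB2, was -1.117. Among 13 inhibitors and ubiquitin ligases of the receptors, none rose and CBLC, a ligase for activated EGFR, fell by 1.04. Without KYSE450 library 1, GRB7 and CBLC stood at -0.996 and -0.944 and were no longer past the fold threshold. The other 22 adaptors and 12 inhibitors did not pass both thresholds.

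The 16 genes of ERK output and feedback split, with 3 higher and 4 lower and a median log2 fold change of 0.30. Among all tested genes 12.2% were higher and 5.98% lower. ETV5, a transcription factor gene turned on by ERK, rose from 287 ± 69.9 to 1364 ± 158 normalized counts (SD, n = 3 each; log2 fold change 2.27, limma adjusted p = 4.00e-07). SPRY1, a feedback inhibitor of receptor signaling, rose by 1.66 and EGR1, an immediate early transcription factor, by 1.29 on the log2 scale. PHLDA1 fell from 7583 ± 227 to 1107 ± 69.0 (log2 fold change -2.78, adjusted p = 2.09e-10), with no library between. IER3, an early response gene that protects from apoptosis, fell by 2.46, EMP1, an epithelial membrane protein, by 1.83 and DUSP5, a nuclear ERK phosphatase, by 1.27. The other 9 did not pass both thresholds.

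Of 25 other receptor tyrosine kinases tested, 3 rose and 7 fell, and the median log2 fold change was -0.62. Among all tested genes 12.2% rose and 5.98% fell, and the median was 0.0041. AXL, the receptor of GAS6, had 1338, 961 and 1243 normalized counts in KYSE450 and 74.7, 65.2 and 57.5 in KEAP1null-KYSE450. It fell by 4.14 on the log2 scale with SE 0.18 (limma, adjusted p = 2.06e-09), a drop of the size seen for AREG and EREG. EPHA4 went from 113, 125 and 115 normalized counts to 2.77, 6.12 and 0, close to the floor, and NTRK2 and EPHA2 fell by 2.03 and 1.64 on the log2 scale. ROR2, at 1.07, 5.05 and 1.86 in KYSE450 and 80.3, 62.2 and 82.7 in KEAP1null-KYSE450, rose from near the floor. ROR1 rose by 2.17 and KIT by 1.30 on the log2 scale, with KIT at 0.89 after quantile normalization.

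**Figure D5:**
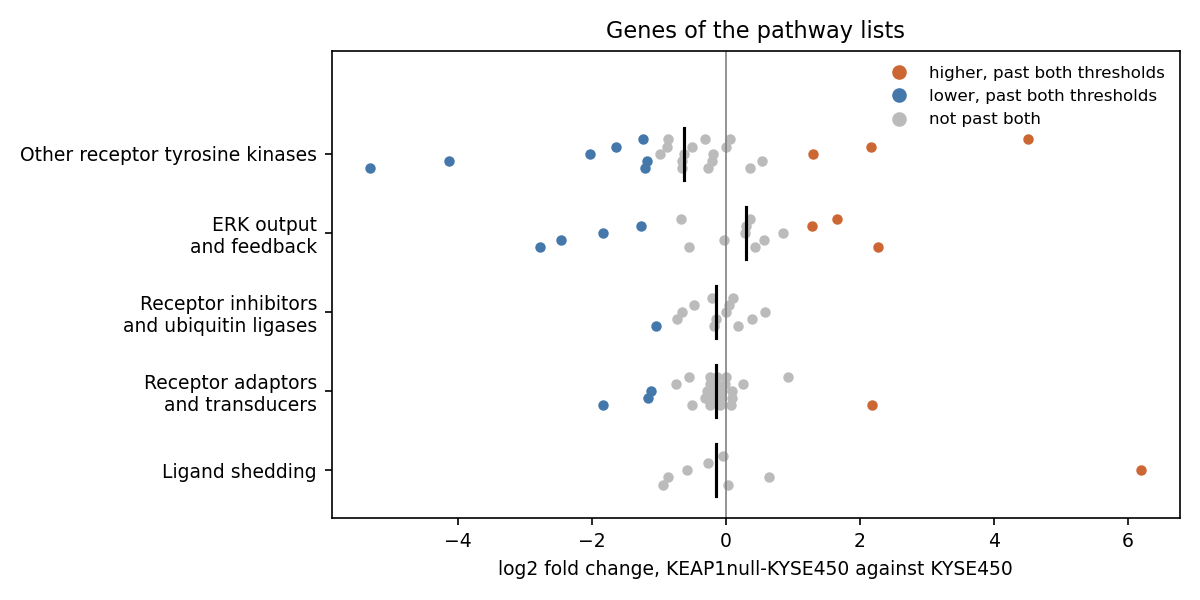
Log2 fold change of KEAP1null-KYSE450 against KYSE450 (horizontal axis) of each tested gene of 5 pathway lists; a point is 1 gene, blue and orange points are past both thresholds, and the black bar is the median of the list. The medians lie between -0.62 for the other receptor tyrosine kinases and 0.30 for ERK output and feedback.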

How the data were processed

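The table deposited by the authors gives each gene's normalized count, a signal on a linear scale, for 3 KYSE450 and 3 KEAP1null-KYSE450 libraries. By the study's methods and the submitters' processing notes, reads were quality filtered (FastQC 0.11.5, cutadapt 1.12), aligned to hg38 with STAR and counted per gene with featureCounts 1.5.1. The authors then normalized the counts. Whether counting used strand is not given in the sources used here. The columns name the line but no replicate number, so library numbers follow the column order and serve only as names.

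All deposited values were whole multiples of 1 step per library (100% within a tolerance of 0.1 reads). The steps were accepted as reads for 4 libraries (53027359 to 61543442 reads), but not for 1 library of each line, whose step could not be separated from 1.

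Log2(normalized count + 1) was tested with limma 3.58.1 in R 4.3.3 (lmFit and eBayes with trend, two-sided) over genes averaging 10 or more, with Benjamini-Hochberg adjustment. This scale understates the change of low genes. On the recovered reads of the 4 libraries, edgeR 4.0.16 (quasi-likelihood) called 1836 genes higher and 876 lower, and DESeq2 1.42.0 called 1633 and 881, against 1737 and 906 by limma on the same 4 libraries, an alternative added after seeing the data, and 2045 and 999 by limma on all 6. Ligand and receptor shares used the merged exon length per gene in gencode v44, which places 16630 of the 16701 tested genes on hg38. Promoter windows came from RefSeq (GRCh38.p14). The genes named were the 10 members, KEAP1, NFE2L2, the other ERBB receptors and ligands, up to 4 genes per pathway list and direction past both thresholds, and the tested genes of the chromosome 4 ligand neighbourhood. ADAM17, FBXO22 and GCLC were added after their values were seen. The members and the lists were chosen with earlier results of these data known. Alternatives were other pseudocounts, filters, scalings and tests, and leaving out each library.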

Additional observations from a re-analysis of the deposited data

How the results depend on the processing

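AREG and EREG remained past both thresholds under all 18 alternatives, with log2 fold changes of -4.41 to -3.89 and -4.58 to -4.22 under the 16 that do not change the hypothesis tested or the fold cutoff. TGFA, HBEGF and BTC lost the call only when limma tested against a fold change of 2, with the same log2 fold changes of -1.31, -1.55 and 1.27, which left 0 members higher and 2 lower. Without a fold change cutoff ERBB3 (-0.68) and NRG1 (-0.69) passed as well. By adjusted p, NRG1 stayed at or below 0.00924 under those 16 alternatives, whereas ERBB3 was at 0.058 with eBayes without trend, 0.083 with edgeR, 0.0798 with DESeq2 and 0.0986 with limma on the same 4 libraries. EGFR and ERBB2 did not pass in any alternative, and their small differences turned sign when a library was left out: EGFR ranged from -0.19 to 0.22, below 0 without KYSE450 library 2 (-0.024) or 3 (-0.19) or KEAP1null-KYSE450 library 1 (-0.15), and ERBB2 from -0.28 to 0.11, above 0 without KYSE450 library 1 (0.11). HBEGF, with a mean below 100, has no value under the stricter filter.

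Over all genes, 2045 were higher and 999 lower, 875 higher with a mean of at least 100, 626 higher and 395 lower against a fold change of 2, and 4060 and 4251 without a cutoff. Quantile normalization gave 1388 higher and 1289 lower, so 51.8% in place of 67.2% of the calls were higher. The pathway lists held 10 higher and 15 lower, 6 higher with a mean of at least 100, 5 and 8 against a fold change of 2, and 17 and 36 without a cutoff.

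Shares rest on the length used. Without division by length, the shares in KYSE450 and KEAP1null-KYSE450 were 17.6% and 2.52% for AREG, 20.2% and 2.38% for EREG, 1.30% and 7.92% for BTC, 47.7% and 73.9% for NRG1 and 88.7% and 90.9% for EGFR among the receptors. With the canonical transcript length, chosen after seeing the data, they were 16.4% for EREG in KYSE450, 1.84% and 19.6% for BTC, 15.0% and 40.7% for NRG1 and 79.8% and 83.1% for EGFR. With EGF and NRG4 added to the ligands, also chosen after seeing the data, NRG4 made up 42.7% of the KEAP1null-KYSE450 level per kilobase of exon. Without division by length it made up 30.2%. With EGF and NRG4 added, the ligands summed to 1779 ± 52.7 in KYSE450 and 777 ± 11.9 in KEAP1null-KYSE450 per kilobase of exon (SD, n = 3 each). Without division by length these sums were 8968 ± 484 and 5529 ± 302 (SD, n = 3 each). FBXO22 overlaps 38.2% of the NRG4 exon length on the opposite strand. If strand was not used, these NRG4 shares and sums depend on how reads in this part were assigned, which is not given.

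No paired analysis was possible because the columns carry no replicate numbers. EPGN and HBEGF had the fewest counts among the ligand members in KEAP1null-KYSE450, and the part of sequencing depth in their values was not tested.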

Other observations

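EGF has its own neighbourhood on chromosome 4. Of 32 genes within 500 kb of EGF, itself included, 10 were tested, of which 2 rose and none fell. EGF was among the 2 that rose. By the same rule 12.2% of all tested genes rose and 5.98% fell. CFI, the complement factor I gene, was the other that rose, at 1.07, 4.04 and 10.3 normalized counts in KYSE450 and 22.1, 35.7 and 25.2 in KEAP1null-KYSE450, with a log2 fold change of 2.52 and SE 0.65 (limma, adjusted p = 0.00661). CFI was named after its values were seen. The remaining 8 genes did not pass both thresholds.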
